A study of Mus musculus with 12 samples.

Results

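The annotation used for these data marks 1 class of transcripts as candidates for nonsense-mediated decay (NMD), and 241 transcripts of that class, from 224 genes, were followed through neuronal differentiation. They were taken from all mRNA alignments with a passing quality tag, and each had at least 50 reads over 12 libraries. Reads were found on 2220 NMD transcripts in all, of which 1233 had fewer than 10, and the 241 transcripts held 38892 of their 59742 reads (65.1%). The whole data set had reads on 34244 transcripts, and 9214 of these reached 50. They were selected on their own read numbers in these libraries, so those numbers are given as a description. The cells were of the mouse embryonal carcinoma line P19, which takes on neuronal features under retinoic acid. Native RNA was sequenced on nanopores from undifferentiated cells (D0) and from cells kept for 2, 4 or 6 days (D2, D4 and D6) in NDiff 227 medium with 500 nM retinoic acid, with 3 biological replicates per day. The 3 replicates of a day were told apart by adapter barcodes and shared sequencing runs, and each of the 13 runs held a single day, so that run and day cannot be told apart. P-values therefore measure the spread between these 12 libraries of 1 cell line.

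NMD is a surveillance pathway that degrades mRNAs on which a ribosome stops early. In mammals a stop codon well before the last exon-exon junction leaves an exon junction complex downstream of the terminating ribosome, and the UPF and SMG proteins then recruit decay enzymes. Ribosomal proteins and splicing regulators are well known for producing such transcripts through cassette exons, alternative splice sites or retained introns, in several cases as a way to lower their own expression. Sequencing of native RNA reads each molecule from its 3′ end and gives the length of its poly(A) tail in the same read.

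The kept reads numbered 120326 to 613756 per library, and the 3 D0 libraries were the deepest, with 449406 reads or more. The 50-read rule thus weighed D0 more than the other days. All 3 tested pluripotency markers of 5 listed were lower at D2, D4 and D6 than at D0, and of 5 neuronal markers 2 were lower and 0 higher at D2, 4 were higher at D4 and all 5 at D6 (limma-voom). The median aligned length was 649 to 729 bases at D0, 703 to 756 at D2, 752 to 835 at D4 and 747 to 829 at D6. Reads with a mapping quality of 0, which the aligner could place on more than 1 transcript, made up 13.22% (D4 replicate 2) to 21.63% (D0 replicate 1) of a library.

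The feature shared by the NMD transcripts was read from a later version of the reference annotation on the same build (GRCm38, mm10), in which 238 of 241 were found, all at the same coordinates. One of them, 6330403K07Rik, is a protein-coding transcript there. The stop codon lay 50 to 6182 bases before the last junction in 238 of 238 (median 703.5), which is how the annotation defines the class and is not a result. Among the most read coding transcripts of the same genes, 2 of 213 had such a stop. TGA ended 129 of the open reading frames, TAA 61 and TAG 48. The frame was shorter than that of the most read coding transcript in 184 of 203 pairs. It had a median of 96 codons (35 to 1614) where the start codon was annotated, against 357 in the coding transcripts.

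The 30 bases around the premature stop are shown for the transcripts on which the later results turn, as the genome has them, 5′ to 3′ on the transcript strand with exons joined. Capitals mark the stop codon, and the coordinates are those of its 3 bases on GRCm38.
Rpl10a (chr17:28329061-28329063, plus strand): ttggcaccgctcTAAccccacccagccctc
Rpl12 (chr2:32962594-32962596, plus strand): gaaagttggcgaTGAcattgccaaggctac
Rps12 (chr10:23786658-23786660, minus strand): gcacaaaagttcTGAatgtcatccggccag
Rps9 (chr7:3706018-3706020, plus strand): agcctttggagcTGAcagatgtgagcttac
Ddx5 (chr11:106783954-106783956, minus strand): agagggctaggtTAGtacaaactcgaattc
Srsf3 (chr17:29039485-29039487, plus strand): ctcaccaccctcTGAatctgcattagccag
Eif4a2 (chr16:23112358-23112360, plus strand): cacaggagtcgaTAGcggcagttgatgacg
Nop56 (chr2:130278428-130278430, plus strand): ggagataggtgcTGAgagaacttgacaaga
Cbx1 (chr11:96802824-96802826, plus strand): ctgatgaaatggTGAgtctcctggtggcgc
Cenpa (chr5:30669733-30669735, plus strand): cctatctggattTAAagataggggagcagg

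These stops arose in different ways when the exons were compared with those of the most read coding transcript. In Rpl10a the stop lay in 233 bases of intron that extend exon 3 (chr17:28329048-28329280), and in Rps12 in 139 bases that belong to exon 1 of the NMD transcript alone. Rpl12 had 121 additional bases in exon 1, and its frame closed in exon 3, in sequence that the coding transcript also holds. Rps9 and Eif4a2 had an additional exon of 174 bases (chr7:3706008-3706181) and 107 bases (chr16:23112351-23112457), and in both the printed window crosses the junction into it. Srsf3, a serine- and arginine-rich splicing factor, carried a cassette exon of 456 bases (chr17:29039454-29039909). Ddx5, an RNA helicase that takes part in splicing, kept a whole intron of 1265 bases (chr11:106782694-106783958). Nop56, a core protein of box C/D small nucleolar ribonucleoproteins, had an additional exon of 119 bases, and Cenpa, the histone H3 variant of centromeres, one of 137 bases. In Cbx1, which encodes the heterochromatin protein HP1 beta, exon 4 ran on for 176 bases that hold the stop, and the last exon held 1385 further bases that the coding transcript lacks.

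The reads of the 241 transcripts were unevenly spread. The median was 86 reads, 98 transcripts had 100 or more and 9 had 500 or more. The 12 most read were Rpl36a (3848 reads), Hnrnpa1 (2254), Rpsa (1257), Ppia (936), Rpl14 (817), 6330403K07Rik (680), Nedd4 (629), Gm21981 (595), Cbx1 (587), Rpl10a (470), Rrp1 (462) and Atp2a2 (441), and together they held 33.4% of the reads. At the threshold, Bcl7c, Luc7l, Mrps11, Supt4a and Vps26a had 50 reads, while Ctc1, Elf2, Khnyn, Mrpl28, Ncstn, Pak1, Pcid2, Phf10 and Polr1d had a transcript with 49. By function, 15 transcripts came from cytosolic ribosomal proteins and held 22.3% of the reads, and 15 came from splicing regulators and held 9.6%. Translation factors gave 5, respiratory chain subunits 6, the proteasome and ubiquitin system 8, the mitochondrial ribosome 3, chaperones 2, the cytoskeleton 2 and other genes 185. None came from the listed NMD factor genes, where 71 reads in 5 genes fell on NMD transcripts.

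How well a read told an NMD transcript from a coding one differed greatly between transcripts. A mapping quality of 0 was found in 61.3% of the reads on the 241 transcripts and in 15.8% of the reads on coding transcripts of the same genes. A quality of 10 or more was found in 18.9% and 57.9%. As a second measure, a read was called distinguishable when the exons under its aligned part, trimmed by 10 bases at each end, differed by at least 30 bases from every overlapping coding transcript on that strand. By this measure 6679 of 38109 reads (17.5%) on the 238 matched transcripts were distinguishable. More than 50% of the reads were so in 41 transcripts, and 103 transcripts had 0 such reads. Where no coding transcript with reads overlapped, every read counted as distinguishable by definition. This may hold for 6330403K07Rik, which was not among the transcripts compared with coding reads of their gene in this read set. A distinguishable read need not cover the premature stop. It did in 397 of 397 such reads of Cenpa, 192 of 192 of Rpl12, 231 of 231 of Rps12, 98 of 101 of Rps9, 98 of 101 of Eif4a2 and 56 of 56 of Nop56, and in 148 of 269 of Rpl10a, 38 of 48 of Srsf3 and 25 of 81 of Ddx5.

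**Figure D1:**
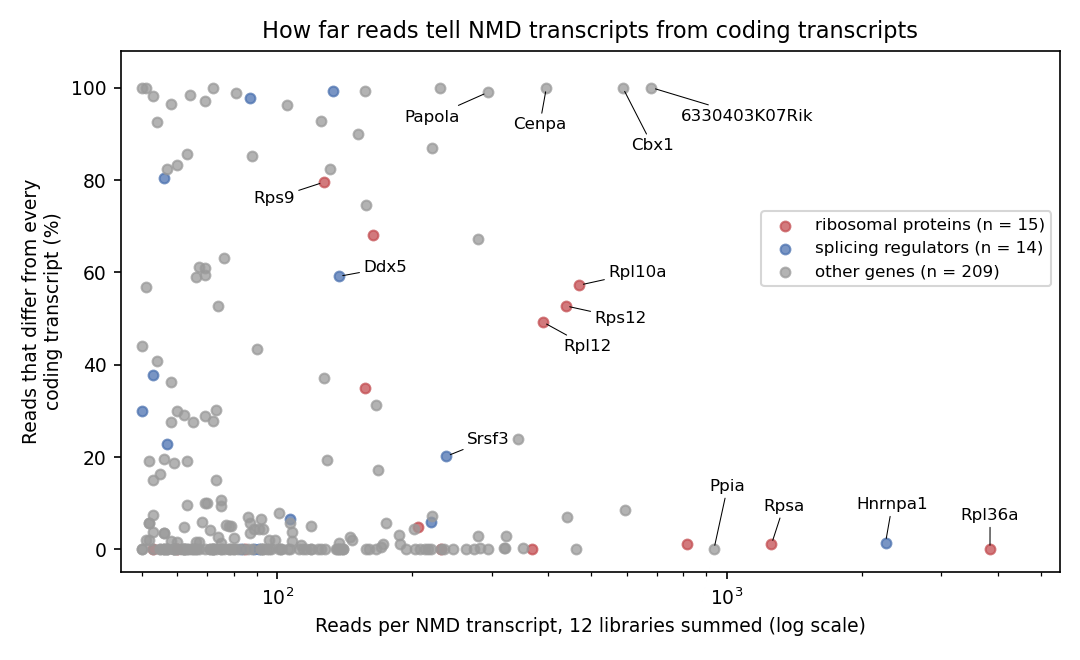
Each point is 1 of the 238 matched NMD transcripts, with its reads summed over 12 libraries on a log scale (x) and the percentage of those reads that differ by 30 or more bases from every overlapping coding transcript (y), colored by gene group. Several of the most read transcripts (Rpl36a, Hnrnpa1, Rpsa, Ppia) lie near 0, whereas Cbx1, Cenpa and 6330403K07Rik lie at 100%. A transcript that no coding transcript with reads overlaps lies at 100% by definition, which may hold for 6330403K07Rik.

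In the 5 most read transcripts few reads were distinguishable by the 30-base measure. Distinguishable reads made up 0% for Rpl36a and Ppia, 1.11% for Rpsa, 1.22% for Rpl14 and 1.46% for Hnrnpa1. A mapping quality of 10 or more was found in 21.8% of the Rpl36a reads and in 1.11% to 2.03% of the reads of the other 4. Values differed between libraries of 1 day in some of these transcripts. The NMD share of Rpsa, a protein of the small ribosomal subunit, was 11.8%, 4.49% and 5.15% in the D0 libraries, 3.51%, 9.51% and 5.76% at D2, 2.58%, 2.65% and 5.34% at D4 and 3.45%, 7.73% and 5.57% at D6. Within every day the highest value came from the library with the most reads of mapping quality 0, namely D0 replicate 1, D2 replicate 2, D4 replicate 3 and D6 replicate 2, and these were also the libraries with the shortest aligned reads of their day. The part of read length in these shares was not tested.

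The share of a gene's reads that was assigned to its NMD transcript varied widely. Over the 232 transcripts of genes that also had coding reads, the share of NMD reads among NMD and coding reads, all assigned reads included, had a median of 27.1% (quartiles 14.5% and 42.5%). It was above 50% in 35 and below 5% in 20, and 9 transcripts belonged to genes with no coding reads. For Cbx1, 587 distinguishable NMD reads stood beside 51 coding reads, and the share lay between 84.8% and 95.5% in every library. Only 184 of the 587 covered the premature stop. Papola, the canonical nuclear poly(A) polymerase, had 294 NMD reads against 105, but only 7 of them covered the stop. Cdc26, a subunit of the anaphase-promoting complex, had 280 against 113. Of the 280, 188 were distinguishable and 136 of these covered the stop. At the other end, ribosomal protein genes had NMD transcripts that were rare beside very abundant coding ones. Rps12 had 438 NMD reads against 25547 coding reads, Rps9 127 against 12728, Rpl12 390 against 9605 and Rpl10a 470 against 9539.

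The first question was whether NMD transcripts as a class took a different part of the transcriptome as cells differentiated. Their summed reads were 1.10%, 0.888% and 0.925% of the kept reads in the D0 libraries, 0.869%, 1.10% and 0.937% at D2, 0.726%, 0.771% and 0.876% at D4 and 0.779%, 1.00% and 0.885% at D6. The means were 0.971% ± 0.114 (SD, n = 3), 0.968% ± 0.118, 0.791% ± 0.0769 and 0.888% ± 0.112, so that the days overlapped, except that all D4 values lay below all D0 values. Distinguishable reads alone gave means of 0.144% ± 0.015, 0.145% ± 0.0072, 0.158% ± 0.0101 and 0.179% ± 0.0041 in the same order of days. Here all 3 D6 libraries (0.183%, 0.178% and 0.175%) lay above all others. A single transcript made most of that difference, since without 6330403K07Rik the means were 0.134%, 0.141%, 0.146% and 0.144%. The reads of 6330403K07Rik may count as distinguishable by definition (above). None of these sums was tested.

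**Figure D2:**
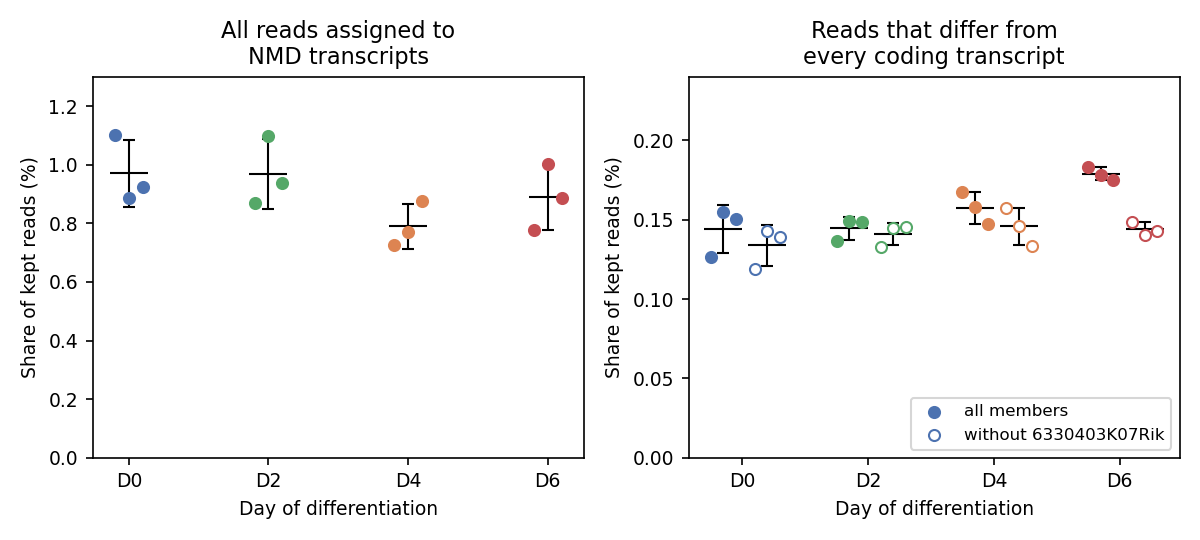
Reads on the 241 NMD transcripts as a percentage of kept reads by day, for all assigned reads (left) and for reads that differ from every coding transcript (right, open points without 6330403K07Rik). Points are libraries and bars the mean ± SD of 3; on the right D6 lies above the other days (mean 0.179%) until 6330403K07Rik is left out (0.144%).

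Abundance of each transcript was then compared with D0 by limma-voom, fitted to all 12356 transcripts with at least 30 reads. The 3 comparisons share the D0 libraries. At D2, 6 of the 241 NMD transcripts were higher and 8 lower, where 3.42% and 3.8% of all transcripts tested were called in these directions. At D4, 4 were higher and 38 lower, against 10.4% and 9.93% of all transcripts. At D6, 14 were higher and 37 lower, against 15% and 14.6%. The number called at D2 was 7 to 9 without any 1 of the D0 or D2 libraries, and that at D4 was 25 without D4 replicate 2. At D6 the number lower was 21 without D6 replicate 3, and the number higher was 9 without D0 replicate 2. The transcripts called higher were a smaller share than the background at D4 (1.66%) and D6 (5.81%). Those called lower were 15.8% at D4 and, near the background, 15.4% at D6. The median log2 change of the 241 transcripts was -0.07, -0.29 and -0.27, and that of all transcripts -0.02, 0.00 and 0.01. When library totals replaced the scaling factors, the split at D6 was 26 higher and 22 lower, and at D2 12 higher and 4 lower. At D6 the median was then -0.04 for the NMD transcripts and 0.24 for all transcripts. The difference between these medians was -0.28, against -0.27 with the scaling factors. The share of all transcripts called with library totals is not given. Among distinguishable reads, with 50 members tested, 8 were higher and 6 lower at D6, where 15.1% and 14.8% of all transcripts were called. At D4 these reads gave 4 higher and 4 lower, against 10.4% and 10.0% of all transcripts, with a median of 0.10. At D2 they gave 4 higher and 3 lower, against 3.44% and 3.86%, with a median of 0.09. Their median at D6 was -0.25, against 0.00 for all transcripts. Only the NMD transcripts were restricted to distinguishable reads here, so the shares over all transcripts are not like for like.

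Of the 37 transcripts lower at D6, 10 came from ribosomal protein genes. They were 10 of the 15 in that group, with 0 higher, with a median log2 change of -1.12. The coding transcripts of ribosomal protein genes were also lower in 122 of 167 tested, with a median of -0.60. Rps12, a component of the small subunit, had 199.8, 203.1 and 191.1 RPM (reads per 1000000, with library sizes scaled by the trimmed mean of M-values) at D0, 67.7, 92.3 and 126.1 at D2, 43.1, 44.9 and 50.6 at D4 and 59.7, 65.7 and 34.5 at D6. Every library of the later days lay below every D0 library. The log2 change at D6 was -1.90 ± 0.231 (SE; adjusted p = 4.77e-09, limma-voom), and that of its most read coding transcript -1.20 ± 0.057.

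Rpl12 and Rpl10a, both of the large subunit, were lower as well. The NMD transcript of Rpl12 had 160.8, 159.9 and 178.1 RPM at D0, 67.7, 37.8 and 60.3 at D2, 86.1, 79.8 and 65.0 at D4 and 63.4, 39.4 and 43.1 at D6, a log2 change of -1.82 ± 0.237 at D6 (adjusted p = 2.47e-08, limma-voom). Its coding transcript changed by -1.17 ± 0.082. For Rpl10a the values were 175.5, 201.3 and 175.9 RPM at D0, 84.6, 155.2 and 131.5 at D2, 99.1, 67.4 and 62.6 at D4 and 55.9, 72.3 and 43.1 at D6. The groups D0 and D6 did not overlap, and the log2 change was -1.67 ± 0.231 (adjusted p = 1.03e-07, limma-voom), against -0.69 ± 0.084 for the coding transcript. In distinguishable reads alone the changes at D6 were -2.02 for Rps12, -1.55 for Rpl12 and -1.75 for Rpl10a, all called. Rps9 was lower by -1.29 (adjusted p = 0.00987, limma-voom), but its D0 libraries (53.6, 62.1 and 30.4 RPM) overlapped with D6 (18.6, 10.95 and 34.5). The NMD transcript of Rps18, of which reads told few apart, was lower too, with a log2 change of -1.91 (adjusted p = 1.22e-05, limma-voom).

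The 5 largest decreases at D6 whose libraries did not overlap those of D0 were those of Hdac5, Gnl3, Lars, Odc1 and Rps18, which had between 0 and 82 distinguishable NMD reads. Hdac5, a class IIa histone deacetylase, fell from 43.9, 45.1 and 47.8 RPM to 11.2, 4.38 and 5.75, a log2 change of -2.63 ± 0.489 (adjusted p = 3.16e-05, limma-voom), and none of its NMD reads was distinguishable. Its coding transcript fell by 1.79 on the same scale. Gnl3, which encodes the nucleolar GTPase nucleostemin, changed by -2.26 (adjusted p = 0.00334) with 63 NMD reads in all, and Lars, the leucyl-tRNA synthetase, by -2.17 (adjusted p = 0.00606) with 63. Without D6 replicate 1 these changes were -1.57 and -1.50, both still called (adjusted p = 0.0323 and 0.0486, limma-voom). Odc1, ornithine decarboxylase, the first enzyme of polyamine synthesis, had 168.2, 118.5 and 130.3 RPM at D0 and 11.2, 54.8 and 46.0 at D6. Its log2 change was -1.91 ± 0.322 (adjusted p = 5.42e-06), and -1.37 in distinguishable reads.

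Increases at D6 were fewer than decreases among all reads (14 and 37) but not among distinguishable reads (8 and 6). Cfl2, the muscle-type cofilin that severs actin filaments, had 7.31, 7.52 and 10.9 RPM at D0 and 52.2, 67.9 and 37.4 at D6, without overlap. Its log2 change was 2.50 ± 0.463 (adjusted p = 2.99e-05, limma-voom), its coding transcript rose by 3.23, and its NMD share was not called different at any day. The remaining 4 of the largest increases were Retreg2, an endoplasmic reticulum protein (2.11), Hnrnph3, a splicing regulator (2.05), Ing4, a reader of histone H3 methylation (1.74), and Fubp1, a single-stranded DNA-binding regulator (1.72). Of these, Fubp1 had 0 distinguishable reads, Retreg2 1 of 58, Ing4 7 of 75 and Hnrnph3 20 of 53. Retreg2 and Hnrnph3 were no longer called without D0 replicate 2 (adjusted p = 0.0636 and 0.0655, limma-voom).

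Transcripts with many distinguishable reads were also among those higher at D6 without overlap of the libraries. For 6330403K07Rik this may hold by definition (above). The 6330403K07Rik transcript had 85.3, 131.7 and 128.1 RPM at D0, 33.8, 42.0 and 32.9 at D2, 107.7, 127.2 and 137.2 at D4 and 350.4, 350.5 and 313.3 at D6. It was lower at D2 (log2 change -1.54, adjusted p = 0.00176, limma-voom) and higher at D6 (1.55 ± 0.166, adjusted p = 1.62e-10), and the libraries of these days did not overlap D0. The Cbx1 transcript rose from 117.0, 109.1 and 108.6 RPM to 186.4, 186.2 and 184.0, a log2 change of 0.73 ± 0.178 (adjusted p = 0.00116, limma-voom). For Cdc26 the increase was from 41.4, 37.6 and 32.6 RPM to 93.2, 103.0 and 86.2 (1.34 ± 0.276, adjusted p = 0.000154).

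**Figure D3:**
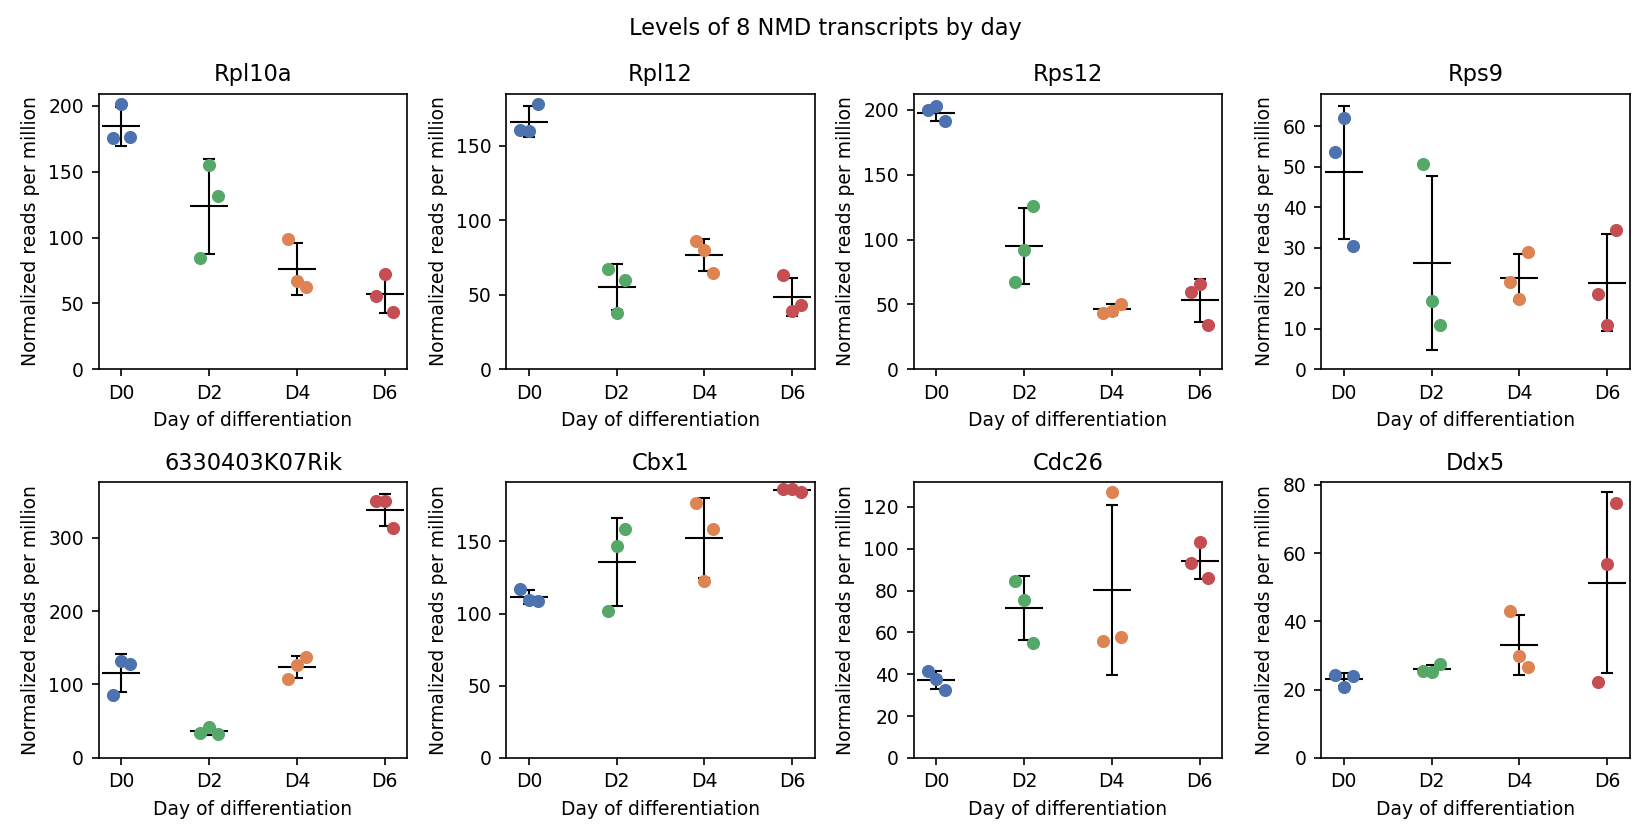
Normalized RPM of 8 NMD transcripts by day of differentiation, each panel with its own axis from 0. Points are libraries and bars the mean ± SD of 3; Rpl10a, Rpl12 and Rps12 lie lower at D6 than at D0 without overlap, and 6330403K07Rik, Cbx1 and Cdc26 lie higher, whereas Rps9 and Ddx5 overlap.

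Splicing regulators were counted in the same way. Of their 15 NMD transcripts, 3 were higher at D6 (Ddx5, Hnrnpdl and Hnrnph3) and 0 lower, with a median log2 change of 0.18, where 15% of all transcripts were called higher and 14.6% lower. Their coding transcripts were higher in 30 and lower in 25 of 228 tested, with a median of 0.09. Ddx5 had 24.4, 20.7 and 23.9 RPM at D0 and 22.4, 57.0 and 74.7 at D6, so that 1 of the D6 libraries lay within the D0 range (log2 change 1.08 ± 0.348, adjusted p = 0.0143, limma-voom). Hnrnpdl was not called at D6 in distinguishable reads (0.83), but was with mapping quality 10 or more (0.83, adjusted p = 0.0488, limma-voom). The call of Hnrnph3 was lost without D0 replicate 2 (above). The difference between the 2 groups of genes was not tested. Of the smaller groups, translation factors, respiratory chain subunits and the mitochondrial ribosome had 0 transcripts called at D6, and the proteasome and ubiquitin system had 2 lower. The chaperones had 1 of 2 lower and the cytoskeleton 1 of 2 higher. Among the other 185, 10 were higher and 24 lower, the latter near the share over all transcripts.

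Cenpa showed its highest values in the middle of the series. The more read of its 2 NMD transcripts had 70.7, 86.5 and 78.2 RPM at D0, 109.9, 151.0 and 137.0 at D2, 176.6, 124.7 and 105.9 at D4 and 126.8, 63.5 and 40.2 at D6. All D2 and D4 libraries lay above D0, and the increase was called at D4 (0.69 ± 0.231, adjusted p = 0.0262, limma-voom) but not at D2 (0.80 ± 0.265, adjusted p = 0.0562). With reads of mapping quality 10 or more it was not called at D4 (0.60, adjusted p = 0.0848, limma-voom), and with distinguishable reads it was (0.68, adjusted p = 0.0282). The D6 libraries spread on both sides of D0. Cenpa, Cdc26, Rps12 and the other transcripts outside the rule for naming were chosen after their values were seen.

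The genes of the NMD pathway were read from the same fit. Of 28 listed factors, 27 could be tested through their most read coding transcript. By limma-voom 0, 3 and 4 of them were called at D2, D4 and D6, where 7.22%, 20.3% and 29.6% of all transcripts were called in either direction. Over all 36 coding transcripts tested of these genes, 4 were higher and 1 was lower at D4, and 1 was higher and 6 were lower at D6. Of all transcripts, 10.4% were higher and 9.93% lower at D4, and 15% and 14.6% at D6. At D4, Ncbp2, a subunit of the nuclear cap-binding complex, was higher (0.60, adjusted p = 0.0308, limma-voom), as was Pym1, which disassembles exon junction complexes (1.76, adjusted p = 0.00682). At D6, Pym1 was higher (1.72, adjusted p = 0.00523), and 3 were lower. These were Etf1, the release factor that recognizes stop codons (-1.05, adjusted p = 3.29e-06; -0.93 at D4), and the exon junction complex subunits Eif4a3 (-0.55, adjusted p = 0.000828) and Magohb (-0.99, adjusted p = 0.0124). The median log2 change of the 27 at D6 was -0.04, and Upf1, the central helicase, changed by -0.02 with 31 reads in all.

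A change in abundance can follow the gene as a whole, so the share of the NMD transcript among NMD and coding reads of its gene was compared next. This was done by limma on the log2 odds for 3894 transcripts with at least 50 reads on either side, of which 217 were NMD transcripts. At D2, 0 of the 217 were called (0.077% of all transcripts were higher and 0.0514% lower), 17 had an unadjusted p under 0.05, and diffSplice of limma also called 0. At D4, 1 was higher and 8 lower, against 1.75% and 2.29% of all transcripts. At D6, 0 were higher and 4 lower, against 1.05% and 1.0%. The number called at D4 was 0 without D4 replicate 2, 3 without D4 replicate 1 and 5 without D0 replicate 3. An unweighted fit called 0 of the 217 at D4 and 0 at D6. At D6 the number was 0 without D0 replicate 3, D6 replicate 1 or D6 replicate 3, 1 without D6 replicate 2 and 2 without D2 replicate 1 or D4 replicate 1. The median change in log2 odds was -0.09, -0.43 and -0.19 for the NMD transcripts and -0.02, -0.08 and -0.02 for all transcripts, while the median aligned length of the libraries was longer at D4 and D6 than at D0 (above). The part of read length in these changes was not tested.

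The largest of these 4 changes at D6 was that of Eif4a2, an RNA helicase of translation initiation with 3 NMD transcripts in the set. The transcript called, which holds the stop shown above, took 17.0%, 19.5% and 22.4% of the reads at D0, 21.4%, 21.6% and 22.7% at D2, 12.8%, 16.2% and 9.38% at D4 and 9.09%, 8.41% and 5.56% at D6. All D4 and D6 libraries lay below all D0 libraries. The change at D6 was -1.52 ± 0.378 in log2 odds (adjusted p = 0.0398, limma). Most reads of this transcript (96.2%) contained the additional exon or otherwise differed by 30 bases, and with these alone the change was -1.32 ± 0.358 at D4 (adjusted p = 0.043, limma) and -2.04 ± 0.393 at D6 (adjusted p = 0.00797). The abundance of the NMD transcript itself was not called different (-0.75 ± 0.386, adjusted p = 0.142, limma-voom), while the coding transcript rose by 1.20 ± 0.205 (adjusted p = 6.91e-06). The share of the other 2 NMD transcripts changed by -0.80 (adjusted p = 0.391, limma) and -1.60 (adjusted p = 0.0686), neither of them called. With all reads the call at D6 was close to the threshold, with adjusted p = 0.0678 under the replicate block and 0.0502 to 0.179 without 1 of 9 libraries of the 12, counting all 3 of D2 and all 3 of D6.

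Lower shares at D6 were also found for the ribosomal proteins Rpl10a and Rps18. Rpl10a had shares of 6.43%, 6.32% and 6.04% at D0, 3.31%, 6.54% and 5.31% at D2, 3.57%, 2.61% and 2.69% at D4 and 2.79%, 4.38% and 2.49% at D6. D4 and D6 lay below D0 in every library, with changes of -1.17 ± 0.209 (adjusted p = 0.00374, limma) and -0.97 ± 0.225 (adjusted p = 0.024). In distinguishable reads, 3 of 25 NMD transcripts tested were lower at D4 (Rpl10a, Rps12 and Eif4a2) and 1 at D6 (Eif4a2), against 2.3% and 0.972% of all transcripts. The other transcripts kept all their reads in this comparison, so those shares are not like for like. The change of Rpl10a was called at D4 (-1.01) and not at D6 (-1.10, adjusted p = 0.0584, limma), where reads of mapping quality 10 or more gave -0.94 (adjusted p = 0.0338). Rps18 changed by -1.43 (adjusted p = 0.0398, limma) at D6, but few of its NMD reads were distinguishable (4.85%). The call of Rps18 at D6 was lost without any 1 of 8 libraries and that of Rpl10a without any 1 of 4, among them D6 replicates 1 and 3 for both genes.

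At D4 the lower shares were those of Rpl10a, Rps12, Rps18, Ppia, Odc1, Slc25a3, Hnrnpa2b1 and Rcn2, and the higher one was that of Rpl36a (0.37 ± 0.087, adjusted p = 0.0235, limma). Distinguishable reads were 0 of 936 for Ppia, 1 of 283 for Slc25a3, 0 of 208 for Rcn2, 7 of 107 for Hnrnpa2b1 and 0 of 3848 for Rpl36a. The share of Rps12 was 2.32%, 2.15% and 2.10% at D0, 0.76%, 0.84% and 1.04% at D4 and 1.35%, 1.74% and 0.94% at D6. The D4 difference was called with all reads (-1.28 ± 0.232, adjusted p = 0.0039, limma) and with distinguishable reads (-1.0 ± 0.256, adjusted p = 0.0326). The Cenpa share rose in no comparison by the test, though all D2 libraries (52.0%, 51.4% and 48.1%) and all D4 libraries (60.3%, 46.3% and 45.4%) exceeded those of D0 (34.1%, 37.4% and 34.6%), with a change of 0.82 ± 0.324 at D4 (adjusted p = 0.181, limma).

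**Figure D4:**
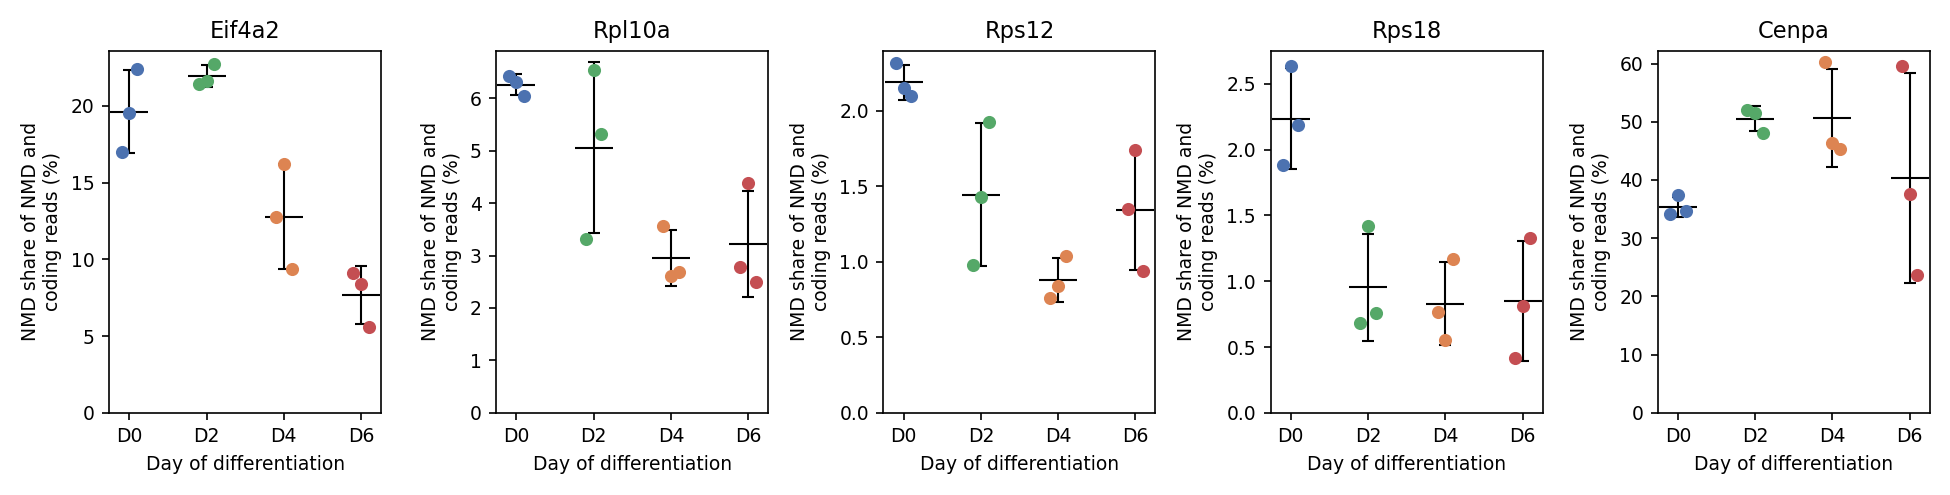
Share of NMD reads among NMD and coding reads of the gene (%) by day for 5 genes, each panel with its own axis from 0. Points are libraries and bars the mean ± SD of 3; for Eif4a2 and Rpl10a all D4 and D6 libraries lie below those of D0, and for Cenpa the D2 and D4 libraries lie above.

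Poly(A) tails were compared within each gene and library, by limma on the difference in mean log2 length between NMD and coding reads. As a description outside that test, the median tail of the NMD reads was set against that of all protein-coding reads of the library, of any gene. It was longer in 12 of 12 libraries (at D0 103.8 against 100.0 nt, 107.7 against 103.3 nt and 109.6 against 105.4 nt, and at D6 109.9 against 100.1 nt, 109.7 against 102.1 nt and 110.0 against 101.2 nt). Of 210 NMD transcripts tested, 10 had longer tails and 3 shorter tails than the coding transcripts of their gene, where 2.47% and 1.53% of 3725 transcripts were called. The median difference was 0.07 on the log2 scale for the NMD transcripts and 0.00 for all, and 141 of 210 were positive. For day against D0, 0 of 210 were called on any of the 3 days (0.0%, 0.0% and 0.0268% of all transcripts, limma), and 8, 8 and 11 had an unadjusted p under 0.05.

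Longer tails were found again in the transcripts described above. The NMD reads of Ddx5 had medians of 294.9, 259.1 and 158.7 nt in the D0 libraries, where coding reads had 109.0, 126.6 and 124.2 nt. At D6 they had 233.1, 275.3 and 266.0 nt against 135.1, 131.7 and 137.7 nt. The NMD tail was longer in 12 of 12 libraries, and the mean log2 difference was 0.74 ± 0.083 (adjusted p = 1.1e-09, limma). Rpl12 had 134.4, 152.3 and 144.1 nt against 94.3, 101.0 and 101.1 nt at D0 (difference 0.55 ± 0.056, adjusted p = 6.99e-11, 12 of 12 libraries). For Rps9 the difference was 0.68 ± 0.093 (adjusted p = 2.07e-07, 12 of 12), for Srsf3 0.38 ± 0.06 (adjusted p = 5.9e-06, 12 of 12) and for Rpl10a 0.41 ± 0.047 (adjusted p = 1.12e-09, 11 of 12). Longer tails were also called for Nop56 (0.63), Eif4a2 (0.42), Cep57, a centrosomal protein (0.49), and 1 of the 2 transcripts of Rpl13a (0.32). None of the reads of the Rpl13a transcript and 10 of the 52 of Cep57 were distinguishable, and the call of Cep57 was lost without any 1 of 9 libraries.

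The same comparison was made with distinguishable reads alone. With 24 NMD transcripts tested, 8 had longer and 0 shorter tails, against 2.57% and 1.53% of all transcripts. Those shares are not like for like, because the other transcripts kept all their reads. With a mapping quality of 10 or more, required of all transcripts, 9 of 23 had longer and 0 shorter tails, against 8.55% and 6.61%. In distinguishable reads the log2 difference was 1.10 ± 0.106 for Ddx5, 1.01 ± 0.077 for Rpl12, 0.89 ± 0.097 for Rps9 and 0.70 ± 0.062 for Rpl10a. It was 0.63 for Nop56, 0.49 for 1 of the Hnrnpa1 transcripts, 0.45 for Eif4a2 and 0.27 for Rps12. In nucleotides, the median over all libraries was 292.5 against 126.6 for Ddx5, 183.9 against 89.7 for Rpl12, 162.4 against 87.9 for Rps9 and 142.6 against 83.2 for Rpl10a. Tails over 90 nt were carried by 98.8% of the Ddx5 NMD reads and 69.7% of the coding reads, and by 92.7% and 49.8% for Rpl12. Tails under 30 nt were found in 0% of the Rpl12 and Rps9 NMD reads (192 and 101 reads) and in 1.86% and 2.17% of the coding reads.

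The longer tails were present on every day. In distinguishable reads of Rpl12 the median was 181.8 nt at D0, 193.5 nt at D2, 186.1 nt at D4 and 182.4 nt at D6, from 104, 12, 48 and 28 reads, while the coding reads had 98.4, 88.4, 82.2 and 78.0 nt. For Rpl10a the NMD reads had 149.3, 127.6, 142.8 and 121.4 nt and the coding reads 93.2, 77.9, 77.4 and 74.2 nt. For Ddx5 they had 302.0, 243.0, 275.8 and 312.6 nt against 120.2, 113.2, 127.4 and 136.3 nt, from only 8 to 34 NMD reads per day. A distinguishable read had to reach the additional sequence, and the median aligned length was 818 bases for Rpl10a NMD reads against 700 for coding reads, 726 against 618 for Rpl12, 811 against 692 for Rps9 and 1679 against 2041 for Ddx5. The annotated 3′ ends of the NMD and coding transcripts lay 1 base apart for Rpl10a, 0 for Rps12 and 3 for Rps9, and 453, 476 and 1193 bases apart for Rpl12, Srsf3 and Ddx5. The part of read length and of 3′ end choice in the tail difference was not tested.

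Across the 47 NMD transcripts with at least 20 distinguishable reads on each side, 34 had a longer median tail than the coding reads and 13 a shorter one, with a median difference of 19.7 nt. The tail was longer in 6 of 6 ribosomal transcripts, 7 of 7 of splicing regulators and 21 of 34 of other genes, as a description without a test. The difference exceeded 50 nt in 9. Taf1d, a subunit of the RNA polymerase I factor SL1, had 222.7 against 79.8 nt (51 and 53 reads), and Hnrnph3 245.9 against 92.5 nt from only 20 NMD reads. Other well-covered NMD transcripts had tails near those of their coding partners, with 108.2 against 106.6 nt for Cenpa, 135.1 against 132.2 nt for Cbx1 and 101.2 against 101.7 nt for Ndufa7, a subunit of respiratory complex I. Phrf1, a ubiquitin ligase, had 109.0 against 162.2 nt (50 and 27 reads).

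**Figure D5:**
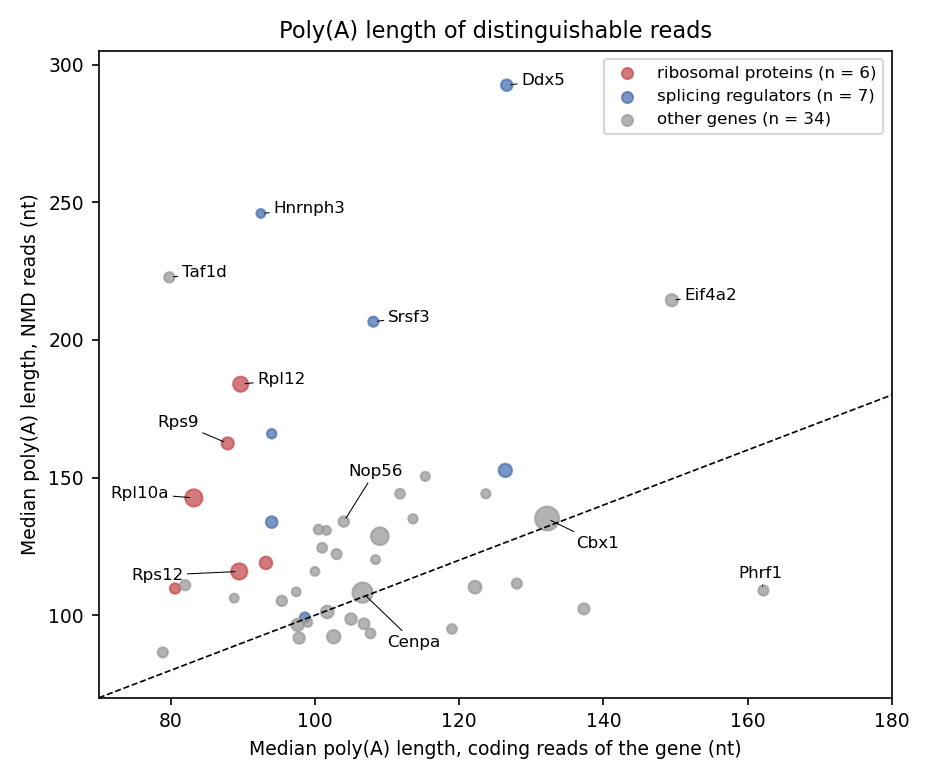
Median poly(A) length (nt) of distinguishable reads of 47 NMD transcripts (y) against the coding reads of the same gene (x), colored by gene group and with point size growing with NMD reads; the dashed line marks equal length. Points above the line (34 of 47) include all 6 ribosomal and all 7 splicing regulator transcripts, with Ddx5 at 292.5 nt against 126.6 nt, while Cenpa and Cbx1 lie on it.

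The 3 transcripts with shorter tails were 2 of Serf2 (-0.56 ± 0.064 and -0.52 ± 0.063, adjusted p = 1.37e-09 and 4.39e-09, limma) and 1 of Arpp19, which encodes an inhibitor of protein phosphatase 2A (-0.33 ± 0.071, adjusted p = 0.0015). None of the Serf2 NMD reads and 2 of the 172 Arpp19 NMD reads were distinguishable. The Serf2 transcripts overlap the neighboring gene Hypk, and the reads assigned to them could not be told from its coding transcripts.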

How the data were processed

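Direct RNA libraries were demultiplexed with Deeplexicon, basecalled with Guppy and aligned with minimap2 2.20 to mouse transcripts (GENCODE vM17, mm10), and Nanopolish estimated poly(A) tails. The authors deposited a table of 6306434 single reads with the transcript, its biotype, the tail length in nucleotides and a mapping quality score, which the aligner sets to 0 where a read could be placed elsewhere. Lines without a library (4.59%) and 69 malformed lines were left out. Reads with a passing tag, of class mRNA and not mitochondrial or of pseudogenes, were kept (4274320). A second deposited table holds the authors' own log2 fold changes and adjusted p-values from DESeq2 and was not used. Each read was assigned by the authors to 1 transcript, so reads that cover only exons shared by several transcripts may be counted on the wrong one.

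Reads per transcript and library were compared by limma 3.58.1 (R 4.3.3) with voom weights and trimmed-mean scaling of library sizes, for transcripts with at least 30 reads. RPM values are reads per 1000000 of these scaled library sizes. Shares were compared as log2 odds with a pseudocount of 0.5 reads and weights by counting error, and tails as differences in mean log2(length + 1) with weights by read number, both needing 50 reads on each side. Fits held all 12 libraries, p-values were adjusted by the Benjamini-Hochberg method over all transcripts tested, and calls were made at 0.05. Intervals are not given for single shares, and standard errors cover the spread between libraries. Transcript structures and sequences came from GENCODE vM21 on GRCm38, in which Nedd4, Coro1b and 1 transcript of Sf1 had no match. Fits were tested on simulated data.

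Transcripts named were the 12 with most reads, the 5 most changed in each direction in abundance and in share at D6 among calls without overlap of D0 and D6, the 5 longest and 5 shortest tails among calls, those beside the 50-read limit and those of NMD factor and Srsf genes. Some transcripts that the rule or a count includes are not reported here by name. The transcripts and lists were chosen with earlier results of these data known, and the measure of 30 differing bases was added after seeing the data. Alternatives covered scaling, filters, weights, mapping quality, thinning, a replicate block and leaving out each library. Replicate numbers did not pair the libraries (correlation of same-numbered libraries -0.27 to 0.29).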

Additional observations from a re-analysis of the deposited data

How the results depend on the processing

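For transcripts called in abundance at D2, D4 and D6 (14, 42 and 51), thinning each library to 120326 reads gave 4, 6 and 15 of 119 tested. A mapping quality of at least 10 gave 6, 7 and 14 of 54, against 8.12%, 23.9% and 32.4% of all transcripts. Reads differing by 30 bases gave 7, 8 and 14 of 50, against 7.29%, 20.4% and 29.9%. Reads differing by a junction or 30 bases gave 7, 8 and 17 of 62. For the other alternatives in abundance the share over all transcripts is not given. Without a filter on low counts 23 were called at D2 and 23 at D4, and limma-trend called 23 at D4 (the cause was not tested). With library totals in place of scaling, the D6 split was 26 higher and 22 lower, with a median of -0.04 against 0.24 for all transcripts. Leaving out each library gave 9 to 19 higher and 21 to 40 lower at D6. For shares at D4 and D6 (9 and 4), thinning gave 1 and 1 of 46, and reads differing by 30 bases 3 and 1 of 25. Reads differing by a junction or 30 bases gave 4 and 2 of 33, and an unweighted fit 0 and 0 of 217. A mapping quality of at least 10 gave 3 of 24 at D4 and 3 of 24 at D6 (12.5% on each day). Of all transcripts, 12.4% and 14.2% were called with that quality. For longer tails (10), at least 3 reads per library gave 6, thinning 3 and an unweighted fit 6. Shorter tails (3) were 0 of 23 with a mapping quality of at least 10, 0 of 24 with reads differing by 30 bases and 0 of 31 with reads differing by a junction or 30 bases, and the 3 themselves had too few reads to be tested in the first 2 of these settings. The summed share at D0, D2, D4 and D6 was 0.239%, 0.235%, 0.245% and 0.281% with a mapping quality of at least 10, 1.446%, 1.439%, 1.212% and 1.458% over all NMD transcripts, and 0.144%, 0.145%, 0.158% and 0.179% with reads differing by 30 bases. Leaving out each library gave 7 to 16, 25 to 43 and 35 to 56 calls in abundance, 0 to 1, 0 to 13 and 0 to 5 in share, 7 to 9 longer and 3 to 4 shorter tails, 0 to 1 changes in tail at D2 and 0 at D4 and D6. It gave summed shares of 0.906% to 1.013%, 0.903% to 1.018%, 0.748% to 0.823% and 0.832% to 0.943%. With the replicate block, 14, 37 and 53 were called in abundance, 0, 6 and 3 in share and 9 longer and 3 shorter in tail. Of the alternatives for single named transcripts, 354 kept direction and call, 59 lost the call and 0 reversed.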
